A study of Fundulus heteroclitus with 20 samples.

Results

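The insulin-like growth factor (IGF) family was described in the lesioned and intact midbrain/diencephalon of the adult mummichog (Fundulus heteroclitus), a killifish. Its members were the genes whose deposited description contained "insulin-like growth factor" or "insulin like growth factor", after 3 genes for mRNA-binding proteins had been left out. The rule found 6 of 13679 genes. They were LOC105924364 (insulin-like growth factor I), igf2 (insulin like growth factor 2), and the insulin-like growth factor-binding proteins LOC105932884 (IGFBP1), LOC105932888 (IGFBP3), LOC105930755 (IGFBP5) and LOC105930782 (IGFBP6). None of the 6 descriptions named a receptor, so IGF receptors were not analysed here. The rule used only descriptions and no measured value.

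IGFs are small secreted hormones related to insulin. They bind a receptor tyrosine kinase that recruits insulin receptor substrates and turns on phosphatidylinositol 3-kinase and AKT, and in the vertebrate nervous system they are known for supporting the growth and survival of neurons and their progenitors. In extracellular fluid IGFs are held by binding proteins, which prolong their lifetime and control how much ligand reaches the receptor.

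RNA was taken at 1 h after a needle had been pushed through the optic tectum of 1 hemisphere into the tegmentum and hypothalamus of anesthetized fish. The lesioned hemisphere and the contralateral intact hemisphere of 10 fish gave 10 lesioned and 10 intact libraries. No strain, genotype or drug differed between the groups, and both hemispheres of a fish shared the anesthesia and the injury, so the intact hemisphere is not tissue of an uninjured animal. The sample labels place every lesioned hemisphere on the right and every intact hemisphere on the left, whereas the study's methods describe an equal division between sides, so that side and lesion cannot be told apart from the labels.

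The listed genes received 9213580 to 11070103 counts per library, and the log2 ratio of the totals within a fish was -0.01 ± 0.13 (SD, n = 10). Neuronal (rbfox3), astroglial (slc1a2, gja1) and oligodendrocyte (mbp, sox10) markers were present in all libraries, as were the midbrain genes otx2, en1 and en2 and the hypothalamic gene trh. Of the 8 genes of the hypothalamus list, 6 passed the filter on low counts, and gnrh1 and hdc did not. The mean of hcrt was only 1.22 CPM in intact hemispheres. Of the 4 midbrain markers tested, otx2 was called higher in lesioned hemispheres (log2 fold change 0.28, standard error 0.06, adjusted p = 0.0476, edgeR). Pituitary genes did not pass the filter on low counts, with 1 to 114 counts for somatotropin and 0 to 384 for prl. The intact library of fish 3 stood apart from the rest. On the first principal component it lay at 41.3, against -22.4 to 10.3 for the other intact libraries, so results that rest on fish 3 are given with and without it. The lowest of these, -22.4, was the intact library of fish 5. The lesioned library of fish 5 stood apart in the summed level of the skeletal muscle markers (actn3 and mylpf tested of 3 listed). It was 74.0 CPM, against 14.1 to 26.1 CPM in the other lesioned and 11.6 to 21.2 CPM in the intact libraries. Over the lesioned libraries mylpf was 15.8 ± 15.9 CPM and actn3 8.18 ± 2.12 CPM (mean ± SD), so the high sum lay mostly in mylpf.

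In the later RefSeq annotation of the assembly MU-UCD_Fhet_4.1, which is not the one the counts were made on, 5 of the 6 gene IDs were found. The ID of LOC105930755 (IGFBP5) was not among them. There igf2 is named igf2b, LOC105932884 is igfbp1a, LOC105932888 is igfbp3 and LOC105930782 is igfbp6b. LOC105924364, which the deposited table describes as insulin-like growth factor I, is named igf3 in this annotation, the symbol of a ligand gene known from teleosts, where it has been studied mostly in the gonad. The study's qPCR control, brain igf-1, was measured with primers designed on a transcript that the later annotation assigns to another gene, igf1. They are shown because the gene they were designed for is not the member described as insulin-like growth factor I, and counts of igf1 itself were not analysed here. Both are written 5′ to 3′ in lower case.
igf-1 forward: tgtctgtggagagaggggct
igf-1 reverse: agctcacaactctggaagcagca

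By gene number in the authors' annotation, several members lie side by side. The IGFBP5 and IGFBP6 genes carry the numbers 1602 and 1603, between genes 1601 (later pip4k2ca) and 1604 (later spryd3). In the later annotation pip4k2ca and spryd3 stand directly before and after igfbp6b, with no further entry between. The IGFBP1 and IGFBP3 genes carry the numbers 18747 and 18748, between adcy1 and a tensin-3-like gene. The igf2 gene lies between th and mrpl23. In the human genome, too, IGFBP1 and IGFBP3 lie beside each other between ADCY1 and TNS3, and IGF2 lies in the interval between TH and MRPL23.

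All 6 members passed the filter on low counts, with 39 to 795 counts per gene and library. At this depth the counting error of 1 value lies between 3.55% and 16.01% of the value. Levels are given as CPM, the counts scaled to a fixed library total after TMM adjustment of that total. They are not compared between genes, since transcript lengths were not used here. Together the 6 genes made up 121 ± 17.1 CPM in intact and 118 ± 11.6 CPM in lesioned hemispheres (mean ± SD, n = 10).

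The comparison of lesioned with intact hemispheres asked which IGF family genes changed within 1 h of the injury, and no member passed the test. Of 10513 genes tested with edgeR's quasi-likelihood test with fish as a block, 1.38% were called at an adjusted p of 0.1 or less (1.28% higher and 0.0951% lower in lesioned hemispheres), and 10.1% at 0.4 or less (6.12% higher and 3.97% lower). These are the q cutoffs of the study. The calls included 0 of the 6 members at either cutoff, also with DESeq2 at 0.4, and the members' adjusted p ranged from 0.497 to 0.990. An unadjusted p under 0.05 in edgeR was reached by 11.7% of all genes and by 0 of the 6 members. With DESeq2, too, 0 of the 6 members reached it. Without fish 3 the members' adjusted p ranged from 0.428 to 0.968. With a background of 1.38%, 0 calls among 6 genes is no departure from the rest of the genes. In bulk tissue, fewer cells of a type and less RNA per cell cannot be told apart.

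**Figure D1:**
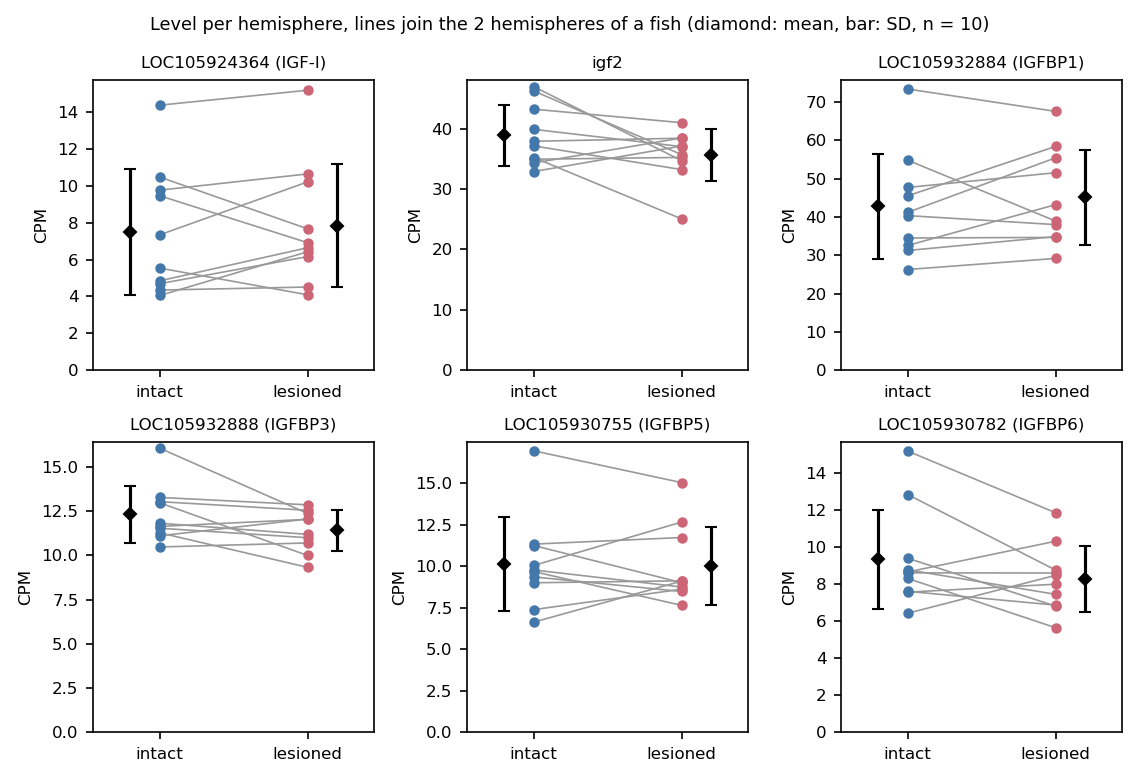
Level of each IGF family gene in CPM (y axis, from 0) in the intact and lesioned hemispheres of 10 fish; grey lines join the hemispheres of a fish, diamonds are means and bars are SD. The groups overlap in every panel, and the lowest igf2 value is the 25.1 CPM of the lesioned hemisphere of fish 2.

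Of the ligands, LOC105924364 had a lowest, median and highest level of 4.05, 6.44 and 14.4 CPM in intact hemispheres. In lesioned hemispheres these were 4.09, 6.78 and 15.2 CPM. The ranges thus overlapped almost completely, and fish 5 was the highest in both groups. The mean was 7.49 ± 3.43 CPM in intact and 7.84 ± 3.33 CPM in lesioned hemispheres, which gave an estimated log2 difference of 0.08 (standard error 0.12, 95% confidence interval -0.17 to 0.34, adjusted p = 0.850, edgeR). It was higher in the lesioned hemisphere of 7 fish and lower in 3, with log2 ratios from -0.44 in fish 10 to 0.64 in fish 1.

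For igf2, whose product is a ligand of the same receptor, the lowest, median and highest levels were 32.9, 37.5 and 46.9 CPM in intact hemispheres and 25.1, 36.3 and 41.0 CPM in lesioned hemispheres. The 3 highest intact values (46.9 CPM in fish 5, 46.2 in fish 4 and 43.2 in fish 3) lay above every lesioned value, and the lowest lesioned value (fish 2) lay below every intact value. The mean was 38.8 ± 5.04 CPM in intact and 35.6 ± 4.31 CPM in lesioned hemispheres. The log2 fold change of igf2 was -0.13 (standard error 0.07, interval -0.27 to 0.01, adjusted p = 0.497 in edgeR), the smallest adjusted p of the family. Only 6 of the 10 fish were lower in the lesioned hemisphere. In the lesioned hemisphere of fish 2, the summed level of the 6 tested genes of the hypothalamus list was also the lowest of the lesioned group, 43.7 CPM in a range that reached 87.4 CPM. In the same library the neuron marker rbfox3 (413 CPM) and the summed midbrain list (245 CPM) were the highest of that group. The part of tissue content in the igf2 value was not tested.

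LOC105932884 encodes IGFBP1, which in mammals and zebrafish is known to be induced by hypoxia and fasting. Its lowest, median and highest levels were 26.3, 40.7 and 73.4 CPM in intact and 29.2, 41.0 and 67.5 CPM in lesioned hemispheres. Fish 6 was the lowest and fish 9 the highest in both groups. The mean was 42.7 ± 13.7 CPM in intact and 45.2 ± 12.4 CPM in lesioned hemispheres, which gave an estimated log2 difference of 0.09 (standard error 0.08, interval -0.08 to 0.26, adjusted p = 0.707, edgeR). It was higher in the lesioned hemisphere of 7 fish and lower in 3, and fish 5 had the lowest log2 ratio, -0.49. When fish 5 was left out, the log2 fold change was 0.16 (standard error 0.06) and the adjusted p was 0.315, which is below the second cutoff of 0.4. In that fit 1293 genes in all were called at 0.4. In fish 5 the level of LOC105932884 was 54.8 CPM in the intact and 38.9 CPM in the lesioned hemisphere. The summed muscle marker level of fish 5 was 16.3 CPM in its intact and 74.0 CPM in its lesioned library. The intact LOC105932884 value of fish 5 was exceeded in its group only by that of fish 9. Its intact library was also the lowest on the first principal component, at -22.4. The part of these markers, or of what set the intact library apart, in the values that turn on fish 5 was not tested.

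LOC105932888 encodes IGFBP3, the main carrier of IGFs in mammalian blood. Its levels were among the most even of the family. The lowest, median and highest were 10.5, 11.7 and 16.1 CPM in intact and 9.33, 11.6 and 12.9 CPM in lesioned hemispheres, and 1 intact value, that of fish 9, stood above the others. The mean was 12.3 ± 1.60 CPM in intact and 11.4 ± 1.16 CPM in lesioned hemispheres, which gave an estimated log2 difference of -0.11 (standard error 0.06, interval -0.24 to 0.03, adjusted p = 0.552, edgeR). It was lower in 7 of the 10 fish.

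LOC105930755 is described as IGFBP5, which binds to extracellular matrix in mammals. Its lowest, median and highest levels were 6.64, 9.74 and 17.0 CPM in intact and 7.65, 9.06 and 15.05 CPM in lesioned hemispheres. Fish 3 was the highest in both groups. The mean was 10.2 ± 2.81 CPM in intact and 10.0 ± 2.34 CPM in lesioned hemispheres, and 5 fish moved each way. The log2 fold change was -0.01 (standard error 0.08, interval -0.19 to 0.17, adjusted p = 0.990, edgeR). Its sign had no stable direction and was positive, at 0.01 (0.0120), without fish 3.

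LOC105930782 encodes IGFBP6, which in mammals binds IGF2 more tightly than IGF1. Its lowest, median and highest levels were 6.42, 8.62 and 15.2 CPM in intact and 5.65, 8.23 and 11.8 CPM in lesioned hemispheres, with fish 3 highest in both. The mean was 9.33 ± 2.65 CPM in intact and 8.27 ± 1.80 CPM in lesioned hemispheres. This was the largest estimated change of the family, a log2 fold change of -0.16 (standard error 0.10, interval -0.38 to 0.05, adjusted p = 0.576, edgeR), and 7 of the 10 fish were lower in the lesioned hemisphere. Fish 5 had the highest log2 ratio (0.39), with 6.42 CPM in its intact hemisphere, the lowest of that group, and 8.47 CPM in its lesioned hemisphere. Without fish 5 the log2 fold change was -0.22 (standard error 0.09) with an adjusted p of 0.366 in edgeR.

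Of the 6 members, 2 had a positive and 4 a negative log2 fold change. The median was -0.06, beside -0.01 over all genes tested. The median absolute log2 fold change was 0.10 in the family and 0.05 over all genes. The genes were not matched for counts or standard error, so these medians do not show that the family moved more. When only the signs of the 10 within-fish log2 ratios were flipped in an exact permutation test, with both tails counted, p ranged from 0.102 for LOC105932888 to 0.955 for LOC105930755 over the 6 tests, unadjusted, where the smallest p that 10 fish allow is 0.00195. The intervals bound what could have gone unseen in single genes. For igf2 the fold lay between 0.830 and 1.01, for LOC105924364 between 0.886 and 1.27, and for LOC105930782 between 0.770 and 1.04. In simulated libraries with 10 fish, the same fit was run on 10653 genes. It called 93% of those with more than 200 counts in all that had been changed by 0.5 on the log2 scale. This share is pooled over genes that were all simulated with the same spread, and is not a value for any member. The share at the spread of a single member, such as LOC105924364 with its standard error of 0.12, was not tested.

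**Figure D2:**
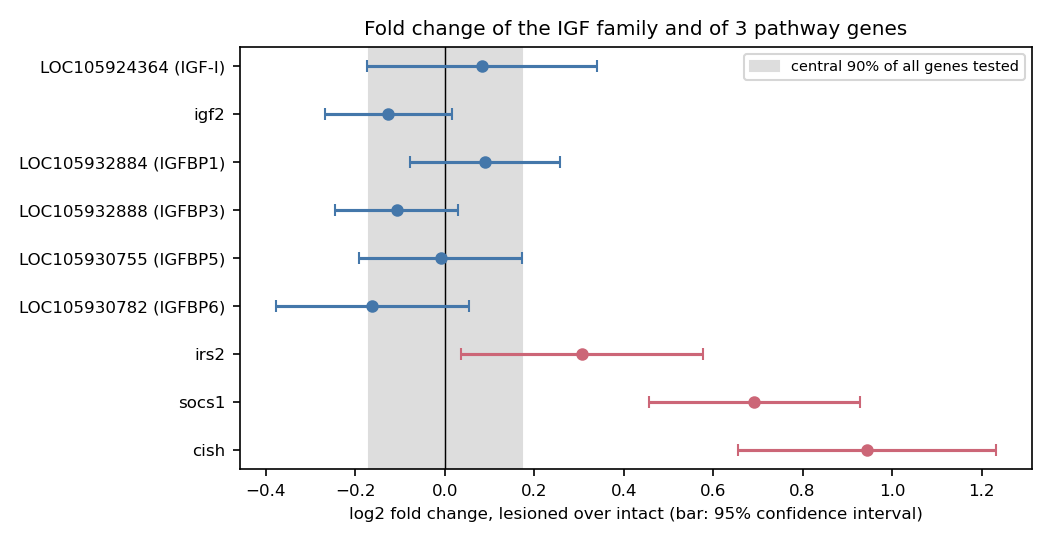
Log2 fold change of lesioned over intact hemispheres (x axis) with the 95% confidence interval for the 6 IGF family genes (blue) and for irs2, socs1 and cish (red); the grey band spans the central 90% of all genes tested (-0.17 to 0.17). The intervals of all 6 family genes include 0, whereas those of socs1 and cish begin at 0.46 and 0.66.

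Differences between fish were larger than the change with the lesion for several members. In intact hemispheres, LOC105924364 varied 3.55-fold between the lowest and the highest fish, with a coefficient of variation of 45.8% where counting error gives about 11.5%. For LOC105932884 the values were 2.79-fold and 32.1%, with 4.78% from counting. For igf2 and LOC105932888 the coefficient of variation was only 13.0% each, with 5.02% and 8.90% from counting. The SD of log2 levels between fish, over the mean of their hemispheres, was 0.55 for LOC105924364 and 0.39 for LOC105932884, against SDs within a fish of 0.29 and 0.20. For igf2 the order was the other way, 0.15 between and 0.17 within fish.

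The hemispheres of 1 fish resembled each other in the most variable members. Across the 10 fish, log2 CPM in lesioned hemispheres correlated with that in intact hemispheres for LOC105924364 (Pearson's r = 0.769, permutation p = 0.0088, adjusted p = 0.0334 over all genes tested; Spearman's rho = 0.782, permutation p = 0.0104, adjusted p = 0.0531). For LOC105932884 r was 0.769 (permutation p = 0.00846, adjusted p = 0.0326) and rho was 0.758 (permutation p = 0.0150, adjusted p = 0.0651). Such likeness was common, since the median r over all genes was 0.593 and 43.0% of genes had an adjusted p of 0.1 or less. Without the 2 fish farthest from the median in intact hemispheres, r was 0.643 for LOC105924364 (fish 3 and 5 left out) and 0.446 for LOC105932884 (fish 6 and 9 left out), so that the second rested in part on those fish. The other members had an r of 0.691 for LOC105930755 (permutation p = 0.0262, adjusted p = 0.0706), 0.521 for LOC105930782 (permutation p = 0.123), 0.443 for LOC105932888 (permutation p = 0.201) and 0.205 for igf2 (permutation p = 0.615). The values of LOC105930755 and LOC105930782 rested on fish 3, since without this fish they were 0.342 and 0.132. Without fish 3 and 7, that of LOC105930782 was -0.13.

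The neighbouring entries described as IGFBP5 and IGFBP6 varied together between fish. Over the mean log2 level of each fish, LOC105930755 and LOC105930782 had an r of 0.917 (n = 10, permutation p = 0.00097, adjusted p = 0.0145 over the 15 pairs of members). Spearman's rho was 0.697 (permutation p = 0.0310, adjusted p = 0.465), so the rank correlation did not pass the adjustment. The r was 0.832 in intact and 0.803 in lesioned hemispheres alone, 0.784 without fish 3, and 0.648 without fish 3 and 7, the fish farthest from the median of LOC105930755. In the intact hemisphere of fish 3, where both genes were highest, the summed level of the meninges and fibroblast list was the lowest of the intact group, at 123 CPM in a range that reached 234 CPM. Its summed skeletal muscle marker level, 21.2 CPM, was the highest of that group. The part of tissue content in this correlation was not tested. The strand setting of the count was not stated. Whether reads could be shared between the adjoining entries, and whether these are separate genes, was not tested.

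**Figure D3:**
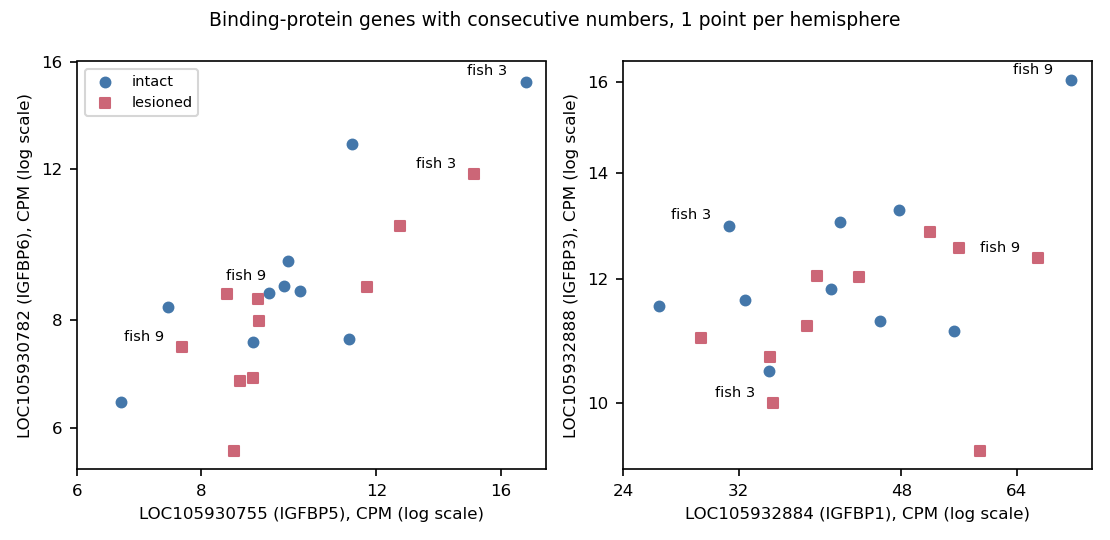
CPM of IGFBP6 against IGFBP5 (left) and of IGFBP3 against IGFBP1 (right), both axes on a log scale, with 1 point per hemisphere (circles intact, squares lesioned). IGFBP5 and IGFBP6 rise together across fish, with fish 3 at the upper end, whereas IGFBP1 and IGFBP3 do so more loosely.

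For the other neighbours, LOC105932884 (IGFBP1) and LOC105932888 (IGFBP3), r was 0.595 (permutation p = 0.0680, adjusted p = 0.510 over the 15 pairs), and 0.273 without fish 6 and 9. Of the 15 pairs, no other than that of IGFBP5 and IGFBP6 had an adjusted p under 0.1 in this permutation test. Between the ligands LOC105924364 and igf2, r was -0.07 (permutation p = 0.846).

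Genes that act around the IGF family were counted from lists. Among 33 tested genes of the signal transducers downstream of the IGF receptor (insulin receptor, insulin receptor substrates, phosphatidylinositol 3-kinase, AKT, FOXO, mTOR and their adaptors), edgeR called 0 at 0.1 and 4 at 0.4 (2 higher and 2 lower), and the median log2 fold change was 0.0041. This share lies near the 10.1% of all genes called at 0.4, so the count is not a result about these genes. DESeq2 called 0 of the 33 genes at 0.1 and 1 at 0.4, where it called 176 and 370 of all 10513 genes. An unadjusted p under 0.05 was reached by 3 of the 33 genes in DESeq2. In edgeR it was reached by 4 of the 33, a share near the 11.7% over all genes. The 4 genes, named after their values had been seen, were irs2, LOC105920054 (phosphatidylinositol 3-kinase regulatory subunit gamma-like, log2 fold change 0.08, adjusted p = 0.287), LOC105915567 (regulatory subunit alpha, -0.14, adjusted p = 0.144) and LOC105934698 (ribosomal protein S6 kinase beta-1-like, -0.07, adjusted p = 0.368), all in edgeR. Without fish 6, LOC105915567 had an adjusted p of 0.0546 in edgeR, the only setting in which it was 0.1 or less. When other single fish were left out, it was 0.151 (without fish 1) to 0.311 (without fish 9).

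The adaptor irs2, which couples insulin and IGF receptors to phosphatidylinositol 3-kinase, had a lowest, median and highest level of 138, 179 and 295 CPM in intact and of 140, 236 and 410 CPM in lesioned hemispheres. Its log2 fold change was 0.31 (standard error 0.13, interval 0.04 to 0.58, adjusted p = 0.364, edgeR), with 8 of 10 fish higher in the lesioned hemisphere. Fish 5 went the other way, with a log2 ratio of -0.72, and without it the log2 fold change was 0.42 with an adjusted p of 0.0418. With DESeq2 its adjusted p was 0.637, above both cutoffs. The call of irs2 at 0.1 thus turned on 1 fish. The muscle marker level of the lesioned library of fish 5 and the place of its intact library on the first principal component were not tested as parts of the irs2 value.

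**Figure D4:**
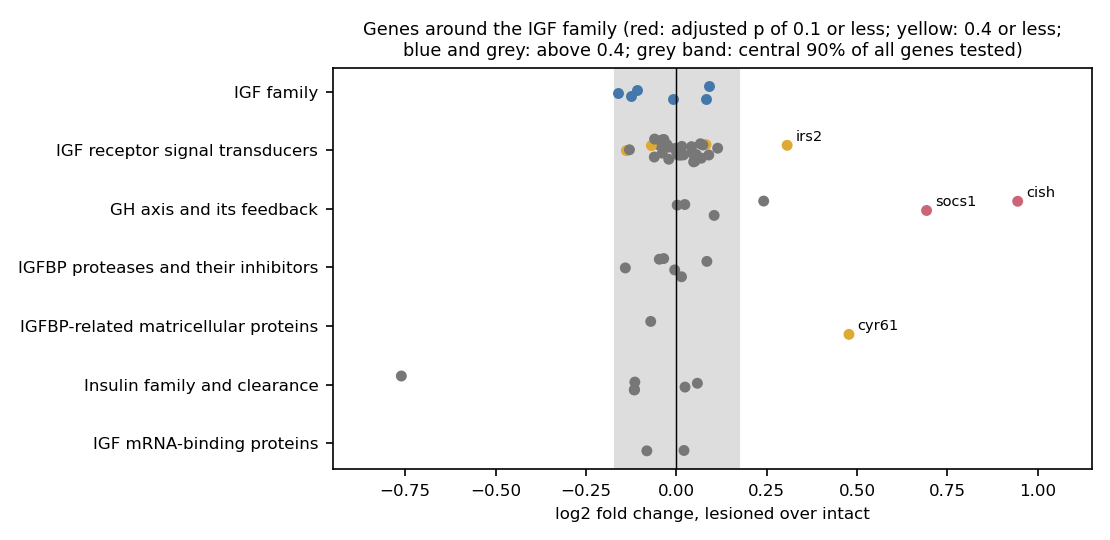
Log2 fold change (x axis) of each tested gene of the IGF family and of 6 lists of genes that act around it; red marks an adjusted p of 0.1 or less, yellow 0.4 or less, blue and grey above 0.4, and the grey band spans the central 90% of all genes. Only cish and socs1 are red, and the family lies between -0.16 and 0.09.

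Of the growth hormone axis and its feedback inhibitors, 6 genes were tested and 2 were higher at 0.1, both inhibitors of JAK-STAT signaling. Over all genes tested, 1.28% were called higher at 0.1. The list was chosen with earlier results of these data known, so its count is not a test of the axis. The level of cish, which in mammals is induced by growth hormone and other cytokines, had a lowest, median and highest of 9.27, 12.6 and 20.6 CPM in intact and of 15.6, 26.3 and 32.6 CPM in lesioned hemispheres. It was higher in all 10 fish (log2 fold change 0.94, standard error 0.13, adjusted p = 0.00171, edgeR). For socs1 these levels were 5.07, 7.62 and 14.9 CPM in intact and 7.36, 13.8 and 21.2 CPM in lesioned hemispheres, with 9 of 10 fish higher (log2 fold change 0.69, standard error 0.11, adjusted p = 0.00408, edgeR). Without fish as a block the estimate for socs1 was 0.69 with a standard error of 0.19, and the adjusted p of 0.256 passed the cutoff of 0.4 but not that of 0.1. Without fish 3 the adjusted p was 0.00634 for cish and 0.00887 for socs1. Of 6 microglia and macrophage markers, edgeR called 0 at 0.1 and 3 (c1qa, csf1r and lcp1) lower at 0.4, where it called 3.97% of all genes lower. DESeq2 called 1 of these markers at 0.1 and 3 at 0.4, where it called 176 and 370 of all 10513 genes in either direction. Their summed level was 940 to 1799 CPM in intact and 930 to 1589 CPM in lesioned hemispheres. Of 2 tested erythrocyte markers, edgeR called hemgn higher at 0.4 (log2 fold change 0.61, adjusted p = 0.379, 9 of 10 fish higher), where it called 6.12% of all genes higher. It called 2 of 6 endothelial and mural markers (cldn5 and egfl7) and 1 of 2 oligodendrocyte markers (mbp) lower at 0.4. The part of these markers in the results for cish and socs1 was not tested. The other tested genes of the growth hormone axis list were not called in edgeR. The growth hormone receptor-like gene LOC105916419 differed by 0.10 on the log2 scale (standard error 0.14, adjusted p = 0.826). LOC105927215, described like cish, differed by 0.24 (standard error 0.26, adjusted p = 0.783). The STAT5B-like genes LOC105932753 and LOC105935697 differed by 0.0024 and 0.02 (adjusted p = 0.997 and 0.831).

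The proteases that release IGFs from binding proteins and the inhibitors of these proteases were not called. Of 6 genes tested, 0 passed at 0.1 or 0.4 in edgeR or DESeq2, and 0 had an unadjusted p under 0.05 with either tool. They include pappa2, a metalloprotease that in mammals cleaves IGFBP3 and IGFBP5 (log2 fold change -0.0045, standard error 0.12), and stc2, known as an inhibitor of pappalysins (-0.14, standard error 0.11). Of 2 tested matricellular genes with an IGFBP-like domain, cyr61 had an estimate of 0.48 on the log2 scale that did not pass the cutoff of 0.1 (standard error 0.14, adjusted p = 0.191, edgeR). The intact hemisphere of fish 5 had 160 CPM of cyr61, against 42.1 to 85.7 CPM in the other intact hemispheres. Without fish 5 the estimate was 0.58 (adjusted p = 0.0279, edgeR). This was the only setting with an adjusted p of 0.1 or less. When other single fish were left out, it was 0.144 (without fish 2) to 0.421 (without fish 8) in edgeR. Without the block cyr61 passed neither cutoff. Of 6 tested genes for relaxins, their receptors and insulin-degrading enzyme, and of 2 for IGF2 mRNA-binding proteins, 0 passed at 0.4 and 0 had an unadjusted p under 0.05, in edgeR or in DESeq2. The pancreatic hormone insulin (LOC105918359) was below the filter, with 0 to 5 counts per library.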

How the data were processed

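The authors trimmed reads with cutadapt 1.11, aligned them with STAR to the mummichog genome assembly Fundulus_heteroclitus-3.0.2 and counted them per gene with HTSeq; strand and multi-mapping settings are not given in the sources used here. The methods name a TruSeq kit and the labels a SMART-Seq kit. The deposited values used are raw counts, without normalization or pooling. Other deposited columns hold the authors' DESeq2 mean, fold change, standard error, statistic and p-values, and were not used. Of 16264 entries, 2585 transfer RNA entries (at most 0.00458% of the counts on the other genes) were left out.

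The 10513 genes that passed filterByExpr (minimum count 10, minimum total 15) went into a quasi-likelihood test of edgeR 4.0.16 under R 4.3.3, with TMM scaling, fish as a block and Benjamini-Hochberg adjustment over all genes. Intervals are 95% and come from the standard error of the fit. DESeq2 1.42.0 was an alternative, as were other scalings, no filter, no block, and leaving out each fish. Log2 ratios used a prior count of 2. Permutation tests of correlations used 100000 resamples, and sign-flip tests all 1024 sign patterns. Hemispheres were paired because they come from 1 fish, and correlations of library deviations from the mean of their group were 0.385 to 0.731 within fish and -0.207 to 0.201 between fish. In simulated data with 200 changed genes, 7.32% of 205 calls were unchanged genes and 95.6% of the intervals held the true value. All genes were simulated with the same spread and from the kind of count model that the fit assumes. These shares thus do not show how the fit does at the spread of the real genes.

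Every member was named, with genes of the lists called at 0.1, and genes called at 0.4 were added after values had been seen. The members and lists were chosen with earlier results of these data known. The lists were matched by symbol and description, and the hypothalamus list also took in 3 receptors of vasotocin and isotocin. Names come from a RefSeq table of MU-UCD_Fhet_4.1, a different assembly from that of the counts, so no coordinates are given. Primer sequences come from the study's supplementary methods.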

Additional observations from a re-analysis of the deposited data

Results flagged for a closer look

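Among 39 groups of 10 values searched (the CPM in each hemisphere and the log2 ratio per fish for the 6 members and 7 genes around them), 4 held a value far from the other 9, and about 1.95 such groups arise by chance alone, at 1 in 20. LOC105930755 (IGFBP5) had 17.0 CPM in the intact hemisphere of fish 3, and 6.64 to 11.3 CPM in the other intact hemispheres. LOC105932888 (IGFBP3) had 16.1 CPM in the intact hemisphere of fish 9, and 10.5 to 13.3 CPM in the others. For igf2, the lesioned hemisphere of fish 2 had 25.1 CPM, and the others 33.2 to 41.0 CPM. For cyr61, the intact hemisphere of fish 5 had 160 CPM, and the others 42.1 to 85.7 CPM.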

How the results depend on the processing

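Of the 96 fold changes of members computed under 16 other settings (6 of the fit and 10 without 1 fish), 0 had an adjusted p of 0.1 or less, and 91 kept their direction. The 5 that did not were all of LOC105930755, whose log2 fold change ranged from -0.06 to 0.03 (-0.0559 to 0.0261) when single fish were left out. The number of members called at 0.4 was 0 to 2 when single fish were left out, the 2 being LOC105932884 and LOC105930782 without fish 5. In that fit 1293 genes in all were called at 0.4, in place of 1060 with all fish. Without the replicate block (fish), 57 genes in place of 145 were called at 0.1 and 88 in place of 1060 at 0.4; the block changed no call of a member. At 0.4 there were 674 genes without the filter and 370 with DESeq2. When single fish were left out there were 101 to 216 genes at 0.1 and 279 (without fish 8) to 2066 (without fish 3) at 0.4, with 701 without fish 1, 556 without fish 6 and 318 without fish 9. The share of higher genes at 0.4 was 60.7% as reported, 47.5% with total counts, 42.3% with upper quartile scaling, 83.5% with DESeq2 and 97.7% without the block; the causes were not tested. A prior count of 0.5 moved the mean log2 ratios of the 6 members by less than the SD between fish. Levels per coding length were not run, since transcript lengths were not used here. Counts of 39 to 165 per library limit the precision for LOC105924364.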
